A study of Mus musculus with 24 samples.

Results

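The genes described here carry antigen presentation by the major histocompatibility complex (MHC). They are the 9 genes of the read-count table named H2-K1, H2-D1, B2m, Tap1, Tapbp, H2-Aa, H2-Ab1, H2-Eb1 and Cd74, of 54532 genes in all, and they were chosen by name. All 9 passed the filter on low counts, which left 19667 genes to test. RNA came from the striatum, the deep forebrain region most affected in Huntington's disease, of C57BL/6 mice, with tissue from 1 hemisphere per animal. The 24 libraries form 4 genotypes of 6 animals, each with 3 males (replicates 1 to 3) and 3 females (replicates 4 to 6). WT mice carry neither change. Tyrobp-KO mice lack Tyrobp, the adaptor protein (DAP12) through which microglial receptors such as TREM2 signal. Q175 mice are heterozygous for the Q175 allele, an Htt knock-in with an expanded CAG repeat. Q175 Tyrobp-KO mice carry both changes. The labels give no age. The series asks how gene expression in the Q175 striatum differs with and without Tyrobp. The tissue was not separated into cell types, so fewer cells of a type and less RNA per cell cannot be told apart.

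MHC class I molecules are made by nearly all nucleated cells. A heavy chain (H2-K1 or H2-D1) pairs with beta-2 microglobulin (B2m) in the endoplasmic reticulum and receives a peptide, which the transporter subunit Tap1 helps to bring in and tapasin (Tapbp) helps to select. CD8 T cells read the result. MHC class II molecules are made mainly by professional antigen-presenting cells. An alpha and a beta chain are escorted by the invariant chain Cd74 and then shown to CD4 T cells. H2-Aa and H2-Ab1 encode the chains of the molecule I-A, and H2-Eb1 encodes the beta chain of I-E, whose alpha chain C57BL/6 mice do not make. In healthy brain both classes are low in neurons, and interferons induce genes of both.

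Promoter sequences of 4 of the genes are shown because levels of the class I genes were correlated from library to library, as given further on, and H2-Eb1 stands for class II. They are stretches of the RefSeq promoter windows (build GRCm38.p6), 5′ to 3′ on the gene's own strand. Capitals mark matches, on either strand, to 4 motifs: the kappa B letters GGGATTCCC, the class II X box core ACNGATG, the Y box ATTGG and the interferon-response core, which is GAAA, 2 further bases and GAAA.
H2-K1 (chr17:34000320-34000472, minus strand): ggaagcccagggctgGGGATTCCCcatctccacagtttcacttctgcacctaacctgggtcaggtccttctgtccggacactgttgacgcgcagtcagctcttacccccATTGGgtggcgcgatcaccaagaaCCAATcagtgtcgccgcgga
H2-D1 (chr17:35262909-35263060, plus strand): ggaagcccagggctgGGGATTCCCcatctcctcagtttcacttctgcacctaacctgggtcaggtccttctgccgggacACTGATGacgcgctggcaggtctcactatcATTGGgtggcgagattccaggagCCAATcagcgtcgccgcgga
B2m (chr2:122147533-122147653, plus strand): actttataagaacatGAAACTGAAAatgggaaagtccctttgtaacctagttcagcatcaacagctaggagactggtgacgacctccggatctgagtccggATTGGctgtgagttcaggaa
H2-Eb1 (chr17:34305764-34305851, plus strand): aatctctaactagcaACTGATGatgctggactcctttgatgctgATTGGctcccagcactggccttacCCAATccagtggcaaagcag
The stretches of H2-K1 and H2-D1 were identical at 136 of 153 aligned positions (88.9%). Each held 1 kappa B match and 2 Y box matches, and H2-D1 also held ACTGATG. The H2-K1 stretch runs past RefSeq's start site by 28 bases, and its second Y box match lies there, whereas the other 3 stretches end before the start site. The B2m stretch held the interferon-response letters as GAAACTGAAA and 1 Y box, and the H2-Eb1 stretch held ACTGATG and 2 Y boxes. Among all 32851 promoter windows of that length, 0.353% held the kappa B letters, 37.4% the Y box, 9.85% the X box core and 3.44% the interferon-response core. Of the other members with a window, Tap1 held 1 Y box, Tapbp 2, and H2-Aa 1 together with CATCTGT, an X box core on the other strand. A match is a run of letters, not a measured binding site.

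Each library held 25482686 to 34626720 counted reads, and levels are CPM (reads of a gene per 1000000 reads of its library, after TMM scaling of library sizes). The targeted genes followed the labels. Tyrobp lay between 5.69 and 11.8 CPM in the 12 libraries with the gene and between 0.214 and 0.448 CPM in the 12 without it. Htt lay between 209 and 233 CPM in WT and between 137 and 177 CPM in Q175. Summed markers of striatal projection neurons, 8 genes, were lower in Q175 (2789 to 4061 CPM) than in WT (4029 to 6335 CPM). In Q175 against WT 8 of 8 log2 fold changes lay below 0 (median -0.72). An edgeR adjusted p under 0.05 was found for 7 of them, against 9.63% of all tested genes. In Q175 Tyrobp-KO against Tyrobp-KO 7 of 8 lay below 0 (median -0.49). Such a p was found for 3 there, against 5.86%. Endothelial markers, 8 genes, all lay below 0 in both comparisons (medians -0.19 and -0.23). Such a p was found for 1 and 2 of them. The part of these shifts in the values of the MHC genes was not tested. A few libraries stood apart. Q175 replicate 3 held 4184 CPM of 8 choroid plexus markers, against 26.5 to 603 CPM elsewhere, and the most class II RNA (11.1 CPM summed over the 4 genes). Q175 Tyrobp-KO replicate 5 had the next highest class II sum (10.1 CPM) with 43.3 CPM of choroid plexus markers. Tyrobp-KO replicate 4 had the highest sum of interferon-response genes. Some results that rest on these libraries are also given without them, and the others include them. P-values measure the spread between these animals, and the labels do not say how the animals were bred.

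No gene of the 9 was called in Q175 against WT, although 9.63% of all tested genes were. A gene is called where edgeR's quasi-likelihood test, adjusted over all 19667 genes by Benjamini-Hochberg, gave a p under 0.05. The count was also 0 of 9 in Tyrobp-KO against WT (0.117% of all genes called), in Q175 Tyrobp-KO against Q175 (0.158%), in Q175 Tyrobp-KO against Tyrobp-KO (5.86%) and for the interaction of both genotypes (0.0%). In Q175 against WT all 9 fold changes lay above 0, as did 51.5% of all genes, and their median was 0.30 on the log2 scale against 0.0073 for all genes. An unadjusted p under 0.05 was found for 4 of the 9 genes there, against 22.6% of all genes. DESeq2 called 2 of the 9 in that comparison, Cd74 and H2-Ab1, and limma-voom called 0. In the other genotype comparisons both tools called 0 of 9.

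**Figure D1:**
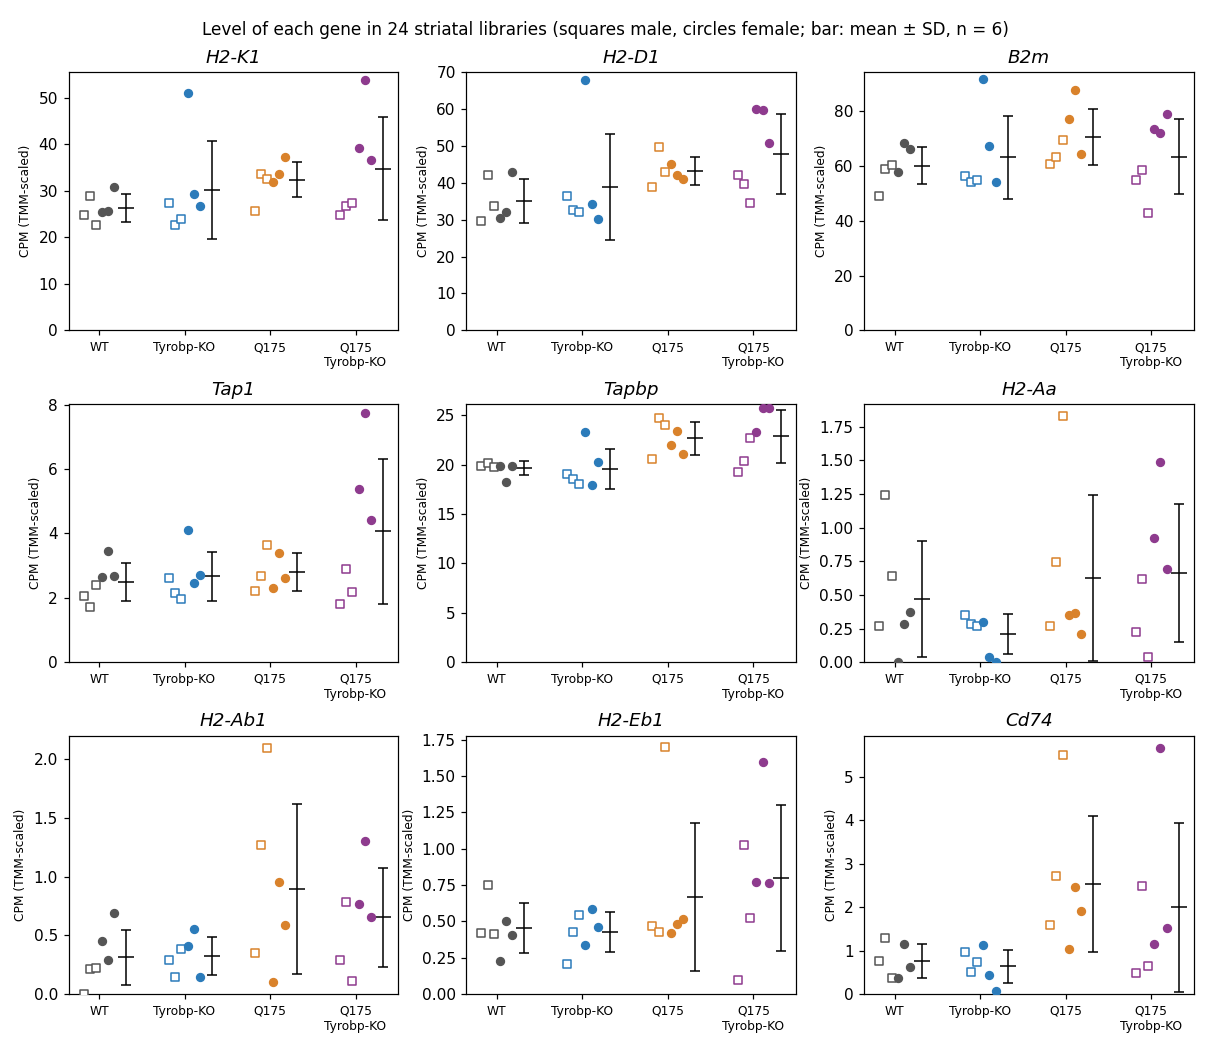
Level of each of the 9 genes in every library, in CPM on a linear axis, by genotype. Squares are males, circles are females, and the bar beside each group is the mean ± SD (n = 6). In the class I panels Tyrobp-KO replicate 4 (51.1 CPM for H2-K1) and the females of Q175 Tyrobp-KO stand high, and in the class II panels Q175 replicate 3 and Q175 Tyrobp-KO replicate 5 do.

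The class I heavy chains were present in every library. H2-K1 (ENSMUSG00000061232, chromosome 17, 33996017 to 34000333, minus strand) had a lowest, median and highest level of 22.6, 25.6 and 30.8 CPM in WT, 22.6, 27.1 and 51.1 in Tyrobp-KO, 25.8, 33.1 and 37.2 in Q175, and 24.8, 31.99 and 53.9 in Q175 Tyrobp-KO. In Q175, 5 of 6 libraries lay above the highest WT library, while 1 Tyrobp-KO library stood far above its group. The log2 fold change in Q175 against WT was 0.30 ± 0.15 (SE, 95% interval -0.012 to 0.60, adjusted p 0.243).

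H2-D1 (ENSMUSG00000073411, chromosome 17, 35262730 to 35267499, plus strand) is the other classical heavy chain. It measured 29.5, 32.9 and 42.9 CPM in WT, 30.2, 33.5 and 67.9 in Tyrobp-KO, 38.9, 42.5 and 49.8 in Q175, and 34.5, 46.5 and 60.1 in Q175 Tyrobp-KO. In Q175, 3 of 6 libraries exceeded every WT library. The difference was 0.30 ± 0.17 (adjusted p 0.296) in Q175 against WT and 0.29 ± 0.17 (adjusted p 0.377) in Q175 Tyrobp-KO against Tyrobp-KO. Without Tyrobp-KO replicate 4 the second value was 0.51 ± 0.12 and was called (adjusted p 0.0156). For H2-K1 the same comparison gave 0.19 ± 0.15 (adjusted p 0.552), and 0.36 ± 0.12 without that library (adjusted p 0.0830). Heavy chains have near-identical relatives, among which reads may have been split. Of the 100-base windows of its transcripts, H2-D1 shared 3.59% with other genes, mostly H2-Q1, and H2-K1 shared 0.957%, all with H2-Q10.

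B2m (ENSMUSG00000060802, chromosome 2, 122147686 to 122153083, plus strand), the light chain of all these molecules, had the highest level of the 9. It measured 49.1, 59.6 and 68.1 CPM in WT, 54.0, 55.6 and 91.8 in Tyrobp-KO, 60.6, 67.0 and 87.6 in Q175, and 42.8, 65.2 and 79.0 in Q175 Tyrobp-KO. In Q175, 3 of 6 libraries lay above the WT range. B2m differed by 0.23 ± 0.10 in Q175 against WT (95% interval 0.011 to 0.44, adjusted p 0.193) and by -0.0011 ± 0.10 in Q175 Tyrobp-KO against Tyrobp-KO (adjusted p 0.997).

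Tapbp (ENSMUSG00000024308, chromosome 17, 33915899 to 33929288, plus strand), the loading chaperone, varied little between animals of a genotype, with a biological coefficient of variation of 9.49% against 16.2% for all genes together. Its lowest, median and highest levels were 18.2, 19.8 and 20.2 CPM in WT, 17.95, 18.8 and 23.3 in Tyrobp-KO, 20.6, 22.7 and 24.7 in Q175, and 19.3, 23.02 and 25.8 in Q175 Tyrobp-KO. Every Q175 library lay above every WT library. Of all tested genes 1.69% showed this, and of the 9 members Tapbp was the 1 that did. The fold change was 0.21 ± 0.075 (1.15-fold, 95% interval 1.04 to 1.28, adjusted p 0.0801). Between Q175 Tyrobp-KO and Tyrobp-KO it was 0.22 ± 0.075 (adjusted p 0.0760), and it was called without Tyrobp-KO replicate 4 (0.28 ± 0.075, adjusted p 0.0275) or without Q175 Tyrobp-KO replicate 1 (adjusted p 0.0371). Tapbp overlaps Zbtb22 and Gm19412, which together had 16576 reads against 14257 for Tapbp. How reads were assigned by strand is not given in the sources used here.

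Tap1 (ENSMUSG00000037321, chromosome 17, 34187553 to 34197225, plus strand), the transporter subunit, was scarcer. It measured 1.71, 2.52 and 3.45 CPM in WT, 1.97, 2.54 and 4.10 in Tyrobp-KO, 2.21, 2.66 and 3.63 in Q175, and 1.81, 3.67 and 7.73 in Q175 Tyrobp-KO. The groups overlapped, and the widest range was that of Q175 Tyrobp-KO. The difference was 0.22 ± 0.22 (adjusted p 0.628) in Q175 against WT and 0.53 ± 0.22 (adjusted p 0.177) in Q175 Tyrobp-KO against Tyrobp-KO. Tap1 overlaps Psmb9, an immunoproteasome gene with 934 reads against 2021 for Tap1. Without a stated strand setting, reads from the stretch they share cannot be told apart.

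Class II genes had few reads. Over all 24 libraries H2-Aa had 334 reads, H2-Ab1 371, H2-Eb1 394 and Cd74 1006. A count of 0 allows up to 3 reads, or 0.0875 to 0.116 CPM per library (counting error only). Cd74 (ENSMUSG00000024610, chromosome 18, 60803848 to 60812646, plus strand), the invariant chain, measured 0.377, 0.695 and 1.28 CPM in WT, 0.0714, 0.617 and 1.12 in Tyrobp-KO, 1.05, 2.18 and 5.49 in Q175, and 0.485, 1.34 and 5.66 in Q175 Tyrobp-KO. In Q175, 5 of 6 libraries exceeded every WT library, and in Q175 Tyrobp-KO, 4 of 6 exceeded every Tyrobp-KO library. Cd74 had the lowest adjusted p of the 9 genes in Q175 against WT, at 1.72 ± 0.57 (3.30-fold, 95% interval 1.45 to 7.53, adjusted p 0.0621). In Q175 Tyrobp-KO against Tyrobp-KO, which shares no library with that comparison, the value was 1.64 ± 0.59 (adjusted p 0.115).

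Whether Cd74 was called in Q175 against WT turned on the setting. It was called by DESeq2 (1.72, adjusted p 0.0329) and in an edgeR fit of only the 12 libraries compared (1.67, adjusted p 0.0141). The edgeR fit over all genotypes also called it without Q175 replicate 4 (adjusted p 0.0454), Tyrobp-KO replicate 6 (0.0425), Q175 Tyrobp-KO replicate 1 (0.0477) or Q175 Tyrobp-KO replicate 5 (0.0238). Without Q175 replicate 3 the value was 1.33 ± 0.56 (adjusted p 0.161). The other Q175 comparison, within Tyrobp-KO animals, gave 0.96 without Q175 Tyrobp-KO replicate 5 (adjusted p 0.346). The animal numbers in the titles begin with a letter prefix that differs between WT and Q175 except in 1 WT library, while both Tyrobp-KO groups share 1 prefix. What the prefix stands for is not stated. With the prefix as a term Cd74 was 2.79 (adjusted p 0.402), Tapbp 0.16 (adjusted p 0.738) and B2m 0.045 (adjusted p 0.959, against 0.23 without the term) in Q175 against WT, where prefix and genotype can hardly be told apart.

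H2-Ab1 (ENSMUSG00000073421, chromosome 17, 34263209 to 34269418, plus strand), the I-A beta chain, measured 0, 0.257 and 0.691 CPM in WT, 0.143, 0.339 and 0.551 in Tyrobp-KO, 0.105, 0.772 and 2.10 in Q175, and 0.113, 0.711 and 1.31 in Q175 Tyrobp-KO. In Q175, 3 of 6 libraries lay above the WT range and 1 lay near its low end. The fold change was 1.63 ± 0.62 (3.10-fold, 95% interval 1.29 to 7.46, adjusted p 0.0983). DESeq2 called it (adjusted p 0.0428), as did edgeR without Q175 replicate 4 (1.96, adjusted p 0.0265), and without Q175 replicate 3 it was 1.14 ± 0.58 (adjusted p 0.258). It was 3.04 ± 0.86 in males alone (adjusted p 0.0645) and 0.19 ± 0.64 in females alone (adjusted p 0.943). The test of that sex difference gave -2.85 ± 1.13 (unadjusted p 0.0189, adjusted p 0.9997), and 3.8% of all genes had an unadjusted p under 0.05 in it.

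H2-Aa (ENSMUSG00000036594, chromosome 17, 34282744 to 34287827, minus strand), the I-A alpha chain, measured 0, 0.332 and 1.24 CPM in WT, 0, 0.278 and 0.350 in Tyrobp-KO, 0.207, 0.358 and 1.83 in Q175, and 0.0375, 0.653 and 1.49 in Q175 Tyrobp-KO. The groups overlapped in every comparison. The fold change was 0.41 ± 0.70 (adjusted p 0.790) in Q175 against WT and 1.88 ± 0.78 (adjusted p 0.181) in Q175 Tyrobp-KO against Tyrobp-KO. H2-Eb1 (ENSMUSG00000060586, chromosome 17, 34305877 to 34316199, plus strand), the I-E beta chain, measured 0.226, 0.417 and 0.746 CPM in WT, 0.204, 0.446 and 0.587 in Tyrobp-KO, 0.418, 0.472 and 1.70 in Q175, and 0.0969, 0.765 and 1.597 in Q175 Tyrobp-KO. Only Q175 replicate 3 exceeded the WT range within Q175, for H2-Eb1 as for H2-Aa. Without it, the difference in Q175 against WT went from 0.56 ± 0.45 to -0.015 ± 0.43 for H2-Eb1, and from 0.41 to -0.20 ± 0.73 for H2-Aa. Coefficients of variation within a genotype were 48.4% for H2-Eb1, 65.1% for Cd74, 65.7% for H2-Ab1 and 82.3% for H2-Aa.

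**Figure D2:**
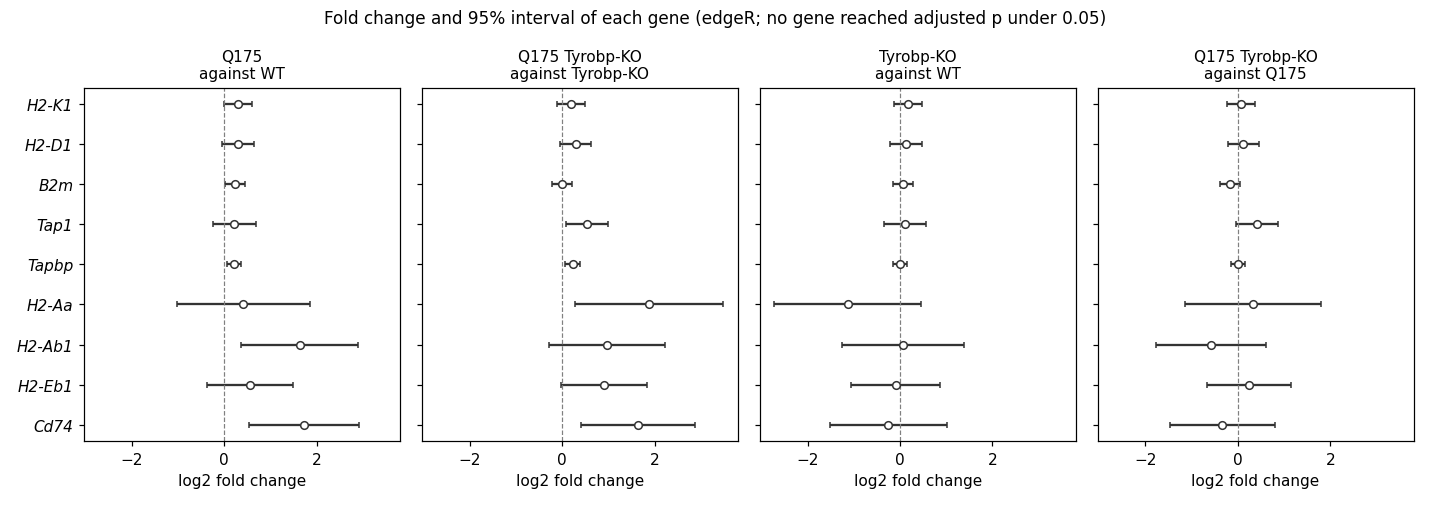
Log2 fold change of each gene (point) with its 95% interval (line) in 4 comparisons from 1 edgeR fit. Class I intervals are narrow and class II intervals wide. The interval of Cd74 in Q175 against WT runs from 0.53 to 2.91, and no gene reached an adjusted p under 0.05.

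Removing Tyrobp gave no call among these genes. In Tyrobp-KO against WT, 0 of 9 had an unadjusted p under 0.05 (6.45% of all genes did), and values ran from -1.13 ± 0.77 for H2-Aa to 0.17 ± 0.15 for H2-K1 (adjusted p 0.774 and 0.819). With a library left out, the H2-K1 value ran from 0.0053 to 0.24. For Q175 Tyrobp-KO against Q175, 0 of 9 had an unadjusted p under 0.05 (6.04% of all genes), and the median was 0.066 against -0.0013 for all genes. Tap1 had the highest value at 0.42 ± 0.22 (adjusted p 0.832) and H2-Ab1 the lowest at -0.59 ± 0.58 (adjusted p 0.885). B2m stood at -0.17 ± 0.10 (adjusted p 0.849). The 95% interval of that difference was -0.24 to 0.37 for H2-K1, -0.22 to 0.46 for H2-D1, -0.38 to 0.047 for B2m, -0.14 to 0.16 for Tapbp and -1.47 to 0.80 for Cd74. The class I intervals were narrower than that of Cd74. The interaction, which asks whether the Q175 difference depends on Tyrobp, ran from -0.65 ± 0.88 (H2-Ab1) to 1.47 ± 1.05 (H2-Aa), and 0 of 9 had an unadjusted p under 0.05 there (3.59% of all genes). Comparisons with a genotype in common share its 6 libraries.

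Within Q175 Tyrobp-KO the class I genes split by sex. All 3 females lay above all 3 males in each of the 5 class I genes, as in 4.92% of all tested genes. H2-K1 measured 24.8, 26.8 and 27.4 CPM in these males and 39.3, 53.9 and 36.6 in these females. Tap1 measured 1.81, 2.90 and 2.18 CPM in the males and 5.38, 7.73 and 4.43 in the females. The count was 1 of 5 class I genes in WT (4.35% of all genes), 0 of 5 in Tyrobp-KO (9.06%) and 0 of 5 in Q175 (5.45%). Of the 4 class II genes, 1 separated the sexes in Q175 Tyrobp-KO. In Q175 Tyrobp-KO against Q175, Tap1 was 1.07 ± 0.26 in females alone (adjusted p 0.535) and -0.31 ± 0.26 in males alone (adjusted p 0.951). A difference between the sexes in the effect of Tyrobp deletion was not tested.

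Over all genotypes, in females against males, the 5 class I genes lay above 0 (51.4% of all genes did) and 0 of 9 members were called (0.0814% of all genes were). B2m ranged from 42.8 to 69.6 CPM in 12 males and from 54.1 to 91.8 CPM in 12 females. Its difference was 0.33 ± 0.074 (unadjusted p 0.000151, adjusted p 0.156). DESeq2 called B2m (adjusted p 0.0147), as did edgeR without Tyrobp-KO replicate 6 (adjusted p 0.0168). H2-K1 differed by 0.38 ± 0.10 (adjusted p 0.741) and Tap1 by 0.57 ± 0.16 (adjusted p 0.717). Those 3 genes had an unadjusted p under 0.05, against 4.05% of all genes. The class II genes ran from -0.67 ± 0.54 for H2-Aa to 0.42 ± 0.44 for H2-Ab1.

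Interferon-response genes were high in several of the libraries with high class I levels. A list of 20 such genes summed to 100.2 to 163.4 CPM in males and 112 to 252 CPM in females. All 20 lay above 0 in females against males (median 0.58 against 0.0024 for all genes), 14 of them with an unadjusted p under 0.05, and 0 were called by edgeR. The highest sums were those of Tyrobp-KO replicate 4 (252 CPM) and of the females of Q175 Tyrobp-KO (204, 193 and 203 CPM). These 4 libraries also held the 4 highest levels of H2-D1 and of Tap1. For H2-K1 a Q175 female at 37.2 CPM exceeded 1 of them, at 36.6 CPM. For B2m Q175 females at 87.6 and 77.0 CPM exceeded 3 and 2 of them. The part of this list in the sex pattern was not tested.

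**Figure D3:**
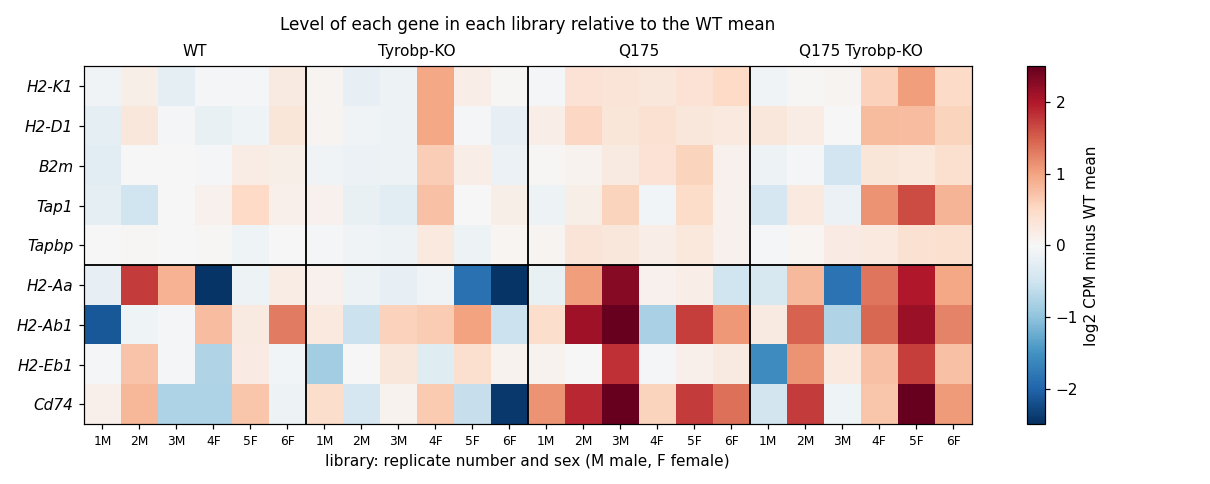
Level of each gene in each library as log2 CPM minus the WT mean, with libraries in columns by genotype, replicate number and sex (M or F). The colour scale ends at -2.5 and 2.5, and values beyond take the end colour. Tyrobp-KO replicate 4 and the females of Q175 Tyrobp-KO are high in the class I genes, and Q175 replicate 3 and Q175 Tyrobp-KO replicate 5 in the class II genes.

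Levels of the class I genes were correlated within genotypes. With each genotype's mean log2 CPM removed, H2-K1 and H2-D1 had a Pearson r of 0.854 and a Spearman rho of 0.828 over 24 libraries (permutation p adjusted over 6 pairs, 0.00078 for both). H2-K1 and B2m had 0.728 and 0.757 (0.00346 and 0.00078), and H2-K1 and Tap1 had 0.773 and 0.686 (0.0009 and 0.00548). Leaving out the extreme libraries, Tyrobp-KO replicate 4 and Q175 Tyrobp-KO replicate 5, lowered r to 0.737, 0.621 and 0.650. With sex means removed as well, the 3 pairs stood at an r of 0.815, 0.438 and 0.566.

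Within class II, H2-Ab1 and Cd74 had an r of 0.548 and a rho of 0.505 (adjusted permutation p 0.00783 and 0.0247, r 0.609 without WT replicate 1 and Q175 replicate 4). The I-A pair H2-Aa and H2-Ab1 had 0.408 and 0.337 (0.0693 and 0.128), and an r of 0.453 without WT replicate 4 and Q175 Tyrobp-KO replicate 3. Across the classes, H2-K1 and Cd74 had 0.516 and 0.417 (0.0504 and 0.0832), and r was 0.263 without Tyrobp-KO replicate 4 and Q175 Tyrobp-KO replicate 5, so with genotype means alone removed the relation rested on these 2. With sex means removed as well, the r over all libraries was 0.741 for H2-K1 and Cd74, 0.573 for H2-Ab1 and Cd74, and 0.602 for H2-Aa and H2-Ab1. Low counts of H2-Aa and H2-Ab1 limit what these values can show. Among all tested genes outside the panel, those most like H2-K1 by the same r over 24 libraries were Gbp3 (0.908), an interferon-induced GTPase, Ifitm3 (0.904), an interferon-induced membrane protein, and H2-Q4 (0.867), a non-classical class I chain. Those most like Cd74 were Rbpjl (0.751), Tap2 (0.698), the partner of Tap1, and Gm38198 (0.689). H2-Aa, within the panel, had an r of 0.738 with Cd74.

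Per kilobase of gene model, the mean over 24 libraries put B2m first at 74.7 CPM per kb, then H2-D1 at 16.01, H2-K1 at 11.9, Tapbp at 6.42, Cd74 at 1.05, Tap1 at 0.549, H2-Eb1 at 0.495, H2-Ab1 at 0.333 and H2-Aa at 0.262. The order from B2m down to Cd74 held at each step in 24 of 24 libraries. From Cd74 on, neighbours changed places often: Cd74 exceeded Tap1 in 17 of 24 libraries, Tap1 exceeded H2-Eb1 in 18, H2-Eb1 exceeded H2-Ab1 in 18, and H2-Ab1 exceeded H2-Aa in 17.

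Of the rest of the class I pathway, genes that supply peptides were called. In the list of peptide supply and loading, 3 of 11 tested genes were called higher in Q175 against WT (4.15% of all genes were) and 0 lower. Of the 11, 9 lay above 0 and 2 below, with a median of 0.28. Psme1, a subunit of the proteasome activator PA28, lay at 12.6, 13.7 and 14.8 CPM (lowest, median, highest) in WT and at 18.5, 21.3 and 22.9 in Q175. It rose by 0.63 ± 0.078 (adjusted p 3.07e-06), and by 0.51 in Q175 Tyrobp-KO against Tyrobp-KO (adjusted p 1.02e-04), and in both comparisons every library lay above every control library (1.69% and 2.22% of all genes). Erap1, which trims peptides in the endoplasmic reticulum, rose by 0.52 ± 0.095 (adjusted p 5.21e-04) and by 0.35 (adjusted p 0.0242). In Q175 Tyrobp-KO against Tyrobp-KO 3 of the 11 genes were called higher (2.78% of all genes were) and 0 lower. The second value of Erap1 lost its call in 5 of 24 fits that left out 1 library (Tyrobp-KO replicates 2, 5 and 6, Q175 Tyrobp-KO replicates 2 and 4, adjusted p up to 0.0731). It was also not called with no filter on low counts or in each sex alone. Psme1 was not called in males alone in that comparison (adjusted p 0.0554). Erap1 ran from 7.13 to 9.31 CPM in WT and from 9.97 to 13.2 CPM in Q175. The third call was Tapbpl, a relative of tapasin, at 0.41 ± 0.12 (adjusted p 0.0296), lost without WT replicate 4 or 5 or Q175 replicate 2 or 3 (adjusted p up to 0.0698), and in the Tyrobp-KO background it was Psme2, the other PA28 subunit, at 0.42 ± 0.096 (adjusted p 0.00796). Both were named after their values were seen. In Q175 against WT, Psme1 was called in 35 of 35 alternatives. Erap1 lost its call with the prefix term (0.33, adjusted p 0.476) and in each sex alone, and Tapbpl and H2-T22, a gene of the next list, lost theirs in the same 3 fits. H2-T22 was also not called in the fit of only the 12 libraries compared, or without both Q175 replicate 3 and Q175 Tyrobp-KO replicate 5. It was called in 22 of 35 alternatives. Pdia3 and Canx, chaperones of folding heavy chains, were at -0.13 ± 0.061 and -0.092 ± 0.052 in Q175 Tyrobp-KO against Q175 (adjusted p 0.818 and 0.843), where 0 of the 11 genes were called.

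Among 11 tested non-classical class I genes, 1 was called higher in Q175 against WT (4.15% of all genes were) and 0 lower. Of the 11, 8 lay above 0 and 3 below, with a median of 0.30. The called gene was H2-T22, a ligand of gamma-delta T cells, at 0.33 ± 0.10 (adjusted p 0.0376). It was not called in 8 of 24 fits that left out 1 library (WT replicates 1, 3, 4 and 6, Q175 replicates 2 to 5, adjusted p up to 0.0873). H2-T22 was at 0.071 ± 0.10 in Q175 Tyrobp-KO against Tyrobp-KO (adjusted p 0.773) and at 0.31 ± 0.10 in Tyrobp-KO against WT (adjusted p 0.749). H2-Q7 lay at 0.339 to 0.853 CPM in WT and 1.27 to 1.93 CPM in Q175, and its difference was 1.42 ± 0.49 (adjusted p 0.0690). H2-Q7 and H2-Q6 are near-identical, so reads may have been split between them. Of the 7 tested genes of class II processing, 0 were called in Q175 against WT (median 0.15) and 0 in Q175 Tyrobp-KO against Q175 (median -0.35). Ctss, the cathepsin that degrades the invariant chain, stood at 0.25 ± 0.091 (adjusted p 0.0905) and -0.42 ± 0.092 (adjusted p 0.0569) in these 2 comparisons. Microglial markers lay lower in the second as well, with 10 of 10 below 0 (median -0.19) and C1qb called (-0.39 ± 0.078, adjusted p 0.0221). Their part in the Ctss value was not tested. Lgmn, another protease of that route, was at 0.15 ± 0.054 (adjusted p 0.0757) in Q175 against WT. Of 8 regulators, 0 were called in either. Ciita, the master activator of class II transcription, was at -0.44 ± 0.15 (adjusted p 0.0546) in Q175 against WT, below 0 where Cd74 and H2-Ab1 lay above 0. Irf8, a factor that microglia need, was at -0.32 ± 0.12 (adjusted p 0.725) in Q175 Tyrobp-KO against Q175. The 20 interferon-response genes gave 0 calls in Q175 against WT, with 17 above 0 and a median of 0.15. Rtp4 had the lowest p of that list, at 0.75 ± 0.28 (adjusted p 0.0976). Of 6 receptor and costimulation genes, 0 were called in Q175 against WT. Cd4, the co-receptor for class II, was at -0.58 ± 0.18 (adjusted p 0.0515), with levels of 52.3 to 87.6 CPM in WT and 42.8 to 66.8 CPM in Q175. Lag3, another class II receptor, was called lower in Q175 Tyrobp-KO than in Q175 (-0.77 ± 0.11, adjusted p 3.18e-04, 0.158% of all genes called). It was also called lower in Tyrobp-KO than in WT (-0.62 ± 0.11, adjusted p 0.00980, 0.117% of all genes called). Its interaction was -0.16 ± 0.16 (adjusted p 0.999).

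**Figure D4:**
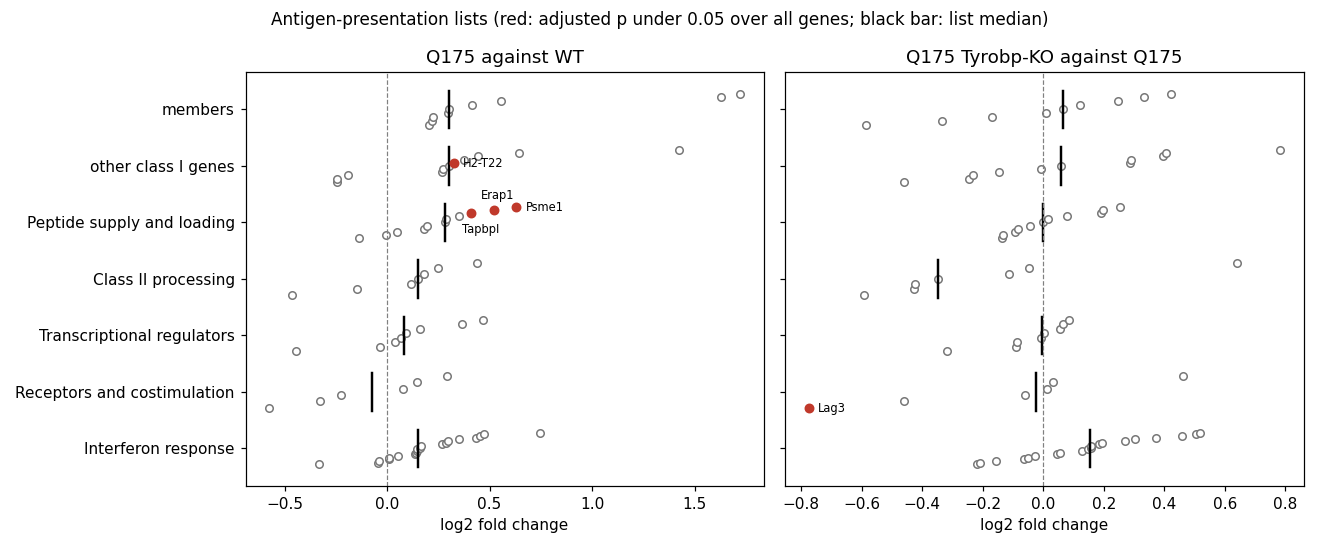
Log2 fold changes of the 9 genes and of other genes of the pathway by list, in Q175 against WT and in Q175 Tyrobp-KO against Q175. Each point is a gene, red points passed an adjusted p under 0.05, and black bars are list medians. Psme1, Erap1, Tapbpl and H2-T22 are the red points of Q175 against WT.

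Markers of cells that carry class II were read in the same libraries. Microglial markers, 10 genes, summed to 359 to 434 CPM in WT, 303 to 419 in Tyrobp-KO, 355 to 450 in Q175 and 329 to 396 in Q175 Tyrobp-KO. In Q175 against WT 5 of the 10 lay above 0 and 0 were called. Markers of border-associated macrophages summed to 15.9 to 23.4, 11.3 to 19.7, 15.0 to 20.2 and 13.3 to 20.6 CPM in the same order, and 0 of 3 tested genes were called. Most of that sum was Cd163, and the defining genes Lyve1, Pf4 and Cd209f were at 0 in 4, 7 and 5 of 24 libraries. For dendritic cells and monocytes, Xcr1 was at 0 in 20 of 24 libraries and Ly6c2 in 13. Itgax (CD11c), also a gene of activated microglia, rose by 2.18 in Q175 against WT (adjusted p 0.00923) and fell by 2.94 in Q175 Tyrobp-KO against Q175 (adjusted p 0.0185). Zbtb46, the other called gene of that list, fell by 0.87 in Q175 against WT (adjusted p 5.18e-05), and the sum of the 9 genes was 17.99 ± 2.93 CPM in WT and 13.5 ± 1.57 CPM in Q175 (SD, n = 6). Of that sum Zbtb46 alone averaged 12.3 CPM in WT and 6.70 CPM in Q175. T cell markers Cd3d, Cd3g and Cd3e were at 0 in 21, 18 and 12 libraries, and the B cell marker Ms4a1 in 20. The B cell list, nearly all of it Ighm, summed to 15.1 to 53.1 CPM in WT, 44.8 to 75.7 in Tyrobp-KO, 7.89 to 41.5 in Q175 and 10.2 to 53.4 in Q175 Tyrobp-KO, and its 1 tested gene was at -0.71 in Q175 against WT and not called. Cortex markers, 5 genes, summed to 735 to 1654, 1415 to 1897, 464 to 1488 and 614 to 1722 CPM in the same order. All 5 lay above 0 in Tyrobp-KO against WT (median 0.87, 0 called) and below 0 in Q175 against WT (median -0.23, 1 called). The part of cortical tissue in the B cell list and the MHC genes was not tested. The part of the listed cell types in the class II levels was not tested.

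Choroid plexus tissue carries class II cells at the brain's border, and its markers also differed between groups. The 8 markers summed to 39.9 to 76.7 CPM in WT, 26.5 to 134 in Tyrobp-KO, 37.5 to 4184 in Q175 and 43.3 to 603 in Q175 Tyrobp-KO. All 8 lay above 0 in Q175 against WT (median 3.05) and in Q175 Tyrobp-KO against Tyrobp-KO (median 1.82), where 0 were called. In Q175 against WT 2 of the 8 were called higher (4.15% of all genes were), Ttr (4.30 ± 1.30, adjusted p 0.0408) and Aqp1 (3.38 ± 0.99, adjusted p 0.0336). Without Q175 replicate 3 they were at 1.88 and 1.69 (adjusted p 0.250 and 0.202), and leaving out 1 library ended the call of Ttr in 10 of 24 fits and that of Aqp1 in 7. The summed class II level was 1.06 to 3.48 CPM in WT (median 1.88), 0.678 to 2.16 in Tyrobp-KO (median 1.71), 1.92 to 11.1 in Q175 (median 3.74) and 1.10 to 10.1 in Q175 Tyrobp-KO (median 3.62). Q175 replicate 3 was highest in both sums, and the next highest class II library had 43.3 CPM of choroid plexus markers, the lowest of its group. The part of choroid plexus tissue in the class II levels was not tested. Without both high class II libraries Cd74 was at 1.36 in Q175 against WT (adjusted p 0.0673), an alternative chosen after seeing the data. Markers of meningeal fibroblasts were also highest in Q175 replicate 3, at 25.1 CPM.

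**Figure D5:**
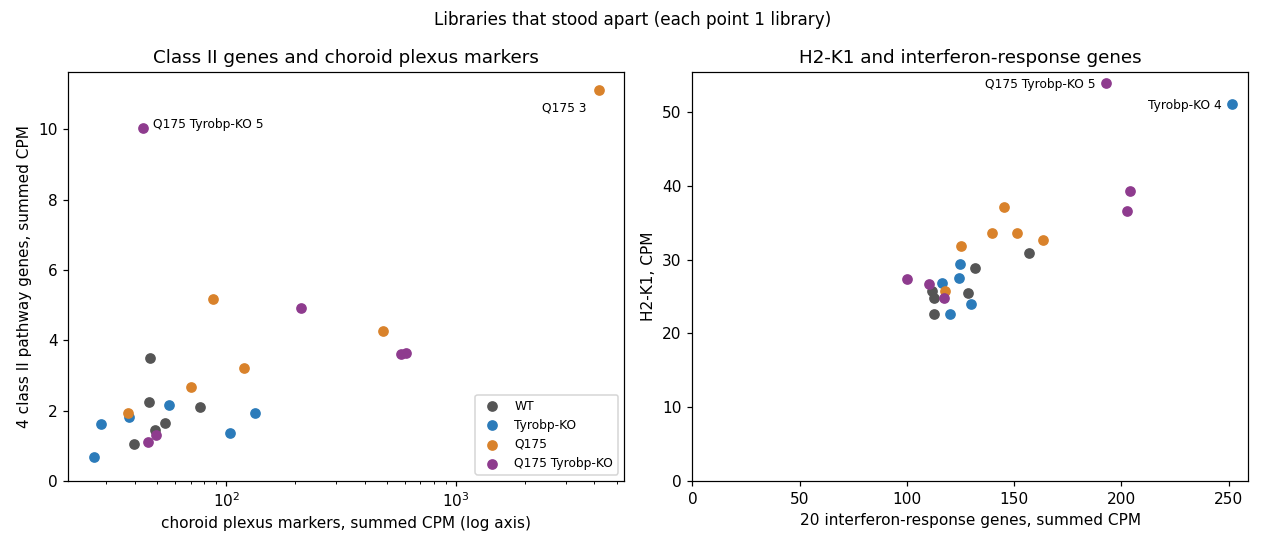
Each point is a library. On the left, the summed level of 4 class II genes against that of 8 choroid plexus markers (log axis), both in CPM, shows Q175 replicate 3 at 11.1 CPM of class II and 4184 CPM of choroid plexus, and Q175 Tyrobp-KO replicate 5 at 10.1 and 43.3 CPM. On the right, H2-K1 in CPM against the summed interferon-response list shows Tyrobp-KO replicate 4 and the females of Q175 Tyrobp-KO at the upper end.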

How the data were processed

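Bulk RNA-seq of mouse striatum gave 24 libraries, 1 per animal number in the titles. The deposited table holds raw read counts per gene, whole numbers made by the authors with STAR and featureCounts, per the submitters' processing notes, which also name DESeq2 and the build GRCh38. The table's genes are mouse genes with coordinates near GENCODE M21 (GRCm38). Strand use, versions and the treatment of multi-mapping reads are stated in no source used here. Totals ran from 25482686 to 34626720 reads.

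Counts were fitted with edgeR 4.0.16 (TMM, filterByExpr, robust quasi-likelihood, genotype plus sex, all libraries), and p-values were adjusted by Benjamini-Hochberg over 19667 of 54532 genes. DESeq2 1.42.0 and limma 3.58.1 (voom), another scaling, other filters, each sex alone, the animal-number prefix and each library left out in turn were alternatives. The fit was tested on simulated data. Correlations used log2 CPM with a prior count of 2 and 100000 permutations within genotype. In 60 within-group pairs counts differed beyond sampling noise (mean chi-square 6.89 to 42.6 per gene), so each library was counted once. Overlap counts between libraries use CPM. The members and lists were chosen with earlier results of these data known. In each list the genes named were the 2 of lowest p in Q175 against WT and in Q175 Tyrobp-KO against Q175 (1 of these is not reported here), and the genes most like H2-K1 and Cd74 were the 3 of highest r. Tapbpl, Psme2, C1qb, Itgax, Zbtb46, Ttr and Aqp1 were named after their values were seen. The promoter table held 7 of the 9 members.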

Additional observations from a re-analysis of the deposited data

Results flagged for a closer look

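In groups of 6, the highest or lowest library of 7 gene and genotype pairs, of 36 tested, lay so far from the others that its gap exceeded Dixon's 95% critical value of 0.625 of the group's range. Chance alone gives about 1 in 20. Tyrobp-KO replicate 4, a female, accounted for 4 of the 7. It held 51.1 CPM of H2-K1 (22.6 to 29.4 CPM in the others of its genotype), 67.9 CPM of H2-D1 (30.2 to 36.5), 91.8 CPM of B2m (54.0 to 67.2) and 4.10 CPM of Tap1 (1.97 to 2.71). The interferon-response sum of this library was 252 CPM, the highest of 24.

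Q175 replicate 3, a male, held 1.83 CPM of H2-Aa (0.207 to 0.743 in the other Q175 libraries) and 1.70 CPM of H2-Eb1 (0.418 to 0.518). Its choroid plexus markers summed to 4184 CPM, the highest of all libraries. WT replicate 5 had 18.2 CPM of Tapbp, below the 19.8 to 20.2 CPM of the other WT libraries.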

How the results depend on the processing

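In Q175 against WT the count of members called was 0 in 29 of 35 alternatives, 1 in 4 and 2 in 2, with 2 by DESeq2, 1 in the 12 libraries compared and 0 to 2 with a library left out. It was 0 to 2 with a library left out in Q175 Tyrobp-KO against Tyrobp-KO, and 1 by DESeq2 and 0 to 1 with a library left out in females against males. Genes called over the whole table were 759 in males, 187 in females and 293 with the prefix term in Q175 against WT, 65 and 8 (males, females) in Tyrobp-KO against WT, 52 by DESeq2 and 11 in each sex in Q175 Tyrobp-KO against Q175, 104 and 290 in Q175 Tyrobp-KO against Tyrobp-KO, and 3 by DESeq2 and 0 to 2 with a library left out for the interaction.  The fold changes that changed sign, none of them called, follow on the log2 scale, and the cause was not tested. In Q175 against WT, Tap1 was -0.075 in females and -0.057 with the prefix term, H2-Aa -0.16 without both high class II libraries, and with a library left out H2-Aa ran from -0.20 to 0.91 and H2-Eb1 from -0.015 to 0.77. In Tyrobp-KO against WT, males gave H2-K1 -0.042, H2-D1 -0.058 and B2m -0.028, and females Tapbp 0.080, H2-Ab1 -0.39 and H2-Eb1 0.28. With a library left out H2-D1 ran from -0.074 to 0.22, B2m from -0.042 to 0.12, Tapbp from -0.062 to 0.014, H2-Ab1 from -0.20 to 0.41 and H2-Eb1 from -0.24 to 0.10. In Q175 Tyrobp-KO against Q175, males gave H2-K1 -0.22, H2-D1 -0.18, Tap1 -0.31, Tapbp -0.15, H2-Aa -1.67 and H2-Eb1 -0.66, females H2-Ab1 0.72 and Cd74 0.62, limma-voom H2-Aa -0.54, and H2-K1 was -0.016 without both high class II libraries. With a library left out H2-K1 ran from -0.055 to 0.12, Tapbp from -0.021 to 0.050, H2-Aa from -0.12 to 0.84, H2-Eb1 from -0.068 to 0.78 and Cd74 from -0.995 to 0.020. Between Q175 Tyrobp-KO and Tyrobp-KO, B2m was 0.0015 with upper-quartile scaling, 0.0090 with limma-voom, 0.0073 with no sex term, 0.075 in females and -0.059 to 0.10 with a library left out, and H2-Aa was -0.036 in males. For the interaction, H2-D1 was 0.019 with limma-voom and 0.085 in females, males gave Tap1 -0.44, Tapbp -0.051, H2-Aa -0.44 and H2-Eb1 -0.21, and females H2-Ab1 1.11 and Cd74 1.03. With a library left out H2-K1 ran from -0.23 to 0.064, H2-D1 from -0.10 to 0.20, Tapbp from -0.013 to 0.070 and Cd74 from -0.73 to 0.27. In females against males, H2-Eb1 was 0.21 with limma-voom, 0.079 without both high class II libraries and -0.20 to 0.23 with a library left out, and Cd74 ran from -0.37 to 0.14. No paired analysis was possible because the labels' numbers name animals and link none across genotypes. The class II genes had 334 to 1006 reads over 24 libraries and coefficients of variation of 48.4% to 82.3% between animals, and the share of each in their wide intervals was not tested.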

Other observations

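The stretch of chromosome 17 from Tapbp to H2-D1 (33915899 to 35267499, as in the deposited table) holds 147 genes of the table, 7 of the 9 members among them, and 85 of its genes were tested. In Q175 against WT, edgeR called 5 of the 85 (5.88%, against 9.63% of all tested genes), and all 5 were lower: Agpat1, Notch4, C4a, Vwa7 and Ly6g6f. Between Q175 Tyrobp-KO and Tyrobp-KO it called 3 (3.53%, against 5.86%), of which 1 was higher and 2 were lower: Skiv2l, C4a and Vwa7. These genes were named after their values were seen. The fold changes of all 7 members in the stretch lay above 0 in Q175 against WT, and 0 of the 7 were called. C4a, a complement gene with a near-identical neighbour, C4b, was called in both, and its reads may have been split between them.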
